A study of Mus musculus with 12 samples.

Results

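The transcripts described here are those of 10 genes of the YAP pathway, read in every tumour library of a mouse study of intrahepatic cholangiocarcinoma, a bile duct cancer that arises within the liver. They were taken by gene symbol from a table of 24421 symbols, and all 10 were found, Ctgf and Cyr61 under those older symbols of Ccn2 and Ccn1. The set holds the coactivator genes Yap1 and Wwtr1 (the protein TAZ), the DNA-binding partner Tead1, the regulators Lats2, Ajuba and Amotl2, and the secreted or surface products Ctgf, Cyr61 and Axl with the muscle ankyrin repeat gene Ankrd1. It is therefore a mixture of YAP target genes and of parts of the pathway itself.

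Bulk RNA sequencing was done on 12 samples of mouse 425-ICC tumour after 8 days of treatment, 3 in each of 4 groups. Control tumours received IgG. GC tumours received chemotherapy, abbreviated in the labels and read here as gemcitabine and cisplatin. ICB tumours were given dual checkpoint blockade, of CTLA-4 and PD-1 by the series title, and Combination tumours both treatments. The labels give no strain, age, dose or batch, do not say how the 425-ICC tumours were established, and do not state whether each sample is its own animal. The p-values therefore reflect variation among these 12 samples, which may be technical.

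The Hippo pathway is a kinase cascade that restrains growth. Its last kinases, LATS1 and LATS2, phosphorylate YAP and TAZ and keep them out of the nucleus, and when the cascade is off, YAP and TAZ enter the nucleus and drive transcription through the TEAD factors. In the liver the pathway limits organ size, and YAP takes part in biliary cell fate and in cholangiocarcinoma. Because YAP and TAZ are controlled mainly as proteins, their transcripts do not measure their activity, and genes such as Ctgf, Cyr61 and Ankrd1 are the usual readouts.

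TEAD factors bind DNA at the letters GGAATG, known as the MCAT element, so the promoters of the set were searched for them on both strands (GGAATG or CATTCC). RefSeq promoter sequences (GRCm38.p6, 250 bases before and 50 after the start) matched 8 of the 10 genes. There was none for Ctgf or Tead1. All 8 held the letters in at least 1 promoter, against 4481 of 27025 genes with a promoter sequence (16.6%). The AP-1 letters TGACTCA (either strand) were in none of the 8 and in 5.95% of all genes. Both counts describe letters in a short window and do not show binding. The windows of the target and regulator genes are shown because they carry the element upstream of the RefSeq start. Each is read 5′ to 3′ on the strand of the gene with the element in capitals.
Cyr61: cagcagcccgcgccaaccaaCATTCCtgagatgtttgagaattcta
Ankrd1, distal: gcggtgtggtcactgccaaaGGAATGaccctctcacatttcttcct
Ankrd1, proximal: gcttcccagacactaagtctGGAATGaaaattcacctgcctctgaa
Amotl2: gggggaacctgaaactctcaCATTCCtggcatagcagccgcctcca
Axl: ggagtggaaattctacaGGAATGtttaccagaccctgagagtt
Ajuba: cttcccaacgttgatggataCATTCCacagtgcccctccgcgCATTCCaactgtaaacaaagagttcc

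On GRCm38 these windows lie at chr3:145650063-145650108 (Cyr61, minus strand), chr19:36120029-36120074 and chr19:36119942-36119987 (Ankrd1, minus), chr9:102717719-102717764 (Amotl2, plus), chr7:25788941-25788983 (Axl, minus) and chr14:54577800-54577867 (Ajuba, minus). Counted from the RefSeq start, the first base of the element was 103 bases before it in Cyr61 and 65 bases before it in Amotl2. GENCODE M21 places the start of Amotl2 and of Ankrd1 further upstream, so their windows lie inside the gene spans given below. Ankrd1 and Ajuba each held 2 copies, 210 and 123 bases before the start in Ankrd1 and 186 and 164 bases before it in Ajuba. In Axl the distance was 233 bases. Yap1 itself held 1 upstream copy, and the 2 overlapping promoters of Wwtr1 shared 1 upstream copy. Lats2 held 1 just after the start in 1 of its 2 promoters.

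The libraries differed in tissue content, which touches every comparison below. In Combination replicate 2 the summed level of a hepatocyte list (20 genes, among them Alb) was 107710 FPKM (fragment counts scaled for transcript length and library depth), against 6772 and 44234 FPKM in Combination replicates 1 and 3, 851 to 7394 FPKM in GC, 360 to 2060 FPKM in ICB and 10.2 to 97.6 FPKM in Control. In Combination replicate 1 that sum held 3720.5 FPKM of Apoa1 and 2188 FPKM of Fabp1. Alb stood there at 217 FPKM, against 441, 174 and 893 FPKM in GC replicates 1 to 3. A small intestinal list of 16 genes summed to 5945 FPKM in the same library. Skeletal muscle genes (14 genes) summed to 1363 FPKM in Control replicate 2 and 4115 FPKM in GC replicate 2 and to at most 14.7 FPKM elsewhere. Of a biliary list of 11 genes, Spp1 (276 to 7598 FPKM) and Sox9 (7.56 to 91.9 FPKM) were present in all 12 libraries. The biliary keratin Krt19 was listed at 0 in Control replicates 2 and 3 and ran from 1.54 to 48.3 FPKM in the others, and the epithelial surface gene Epcam and the claudin Cldn4 were listed at 0 in Control replicate 3 and ICB replicate 1.

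**Figure D1:**
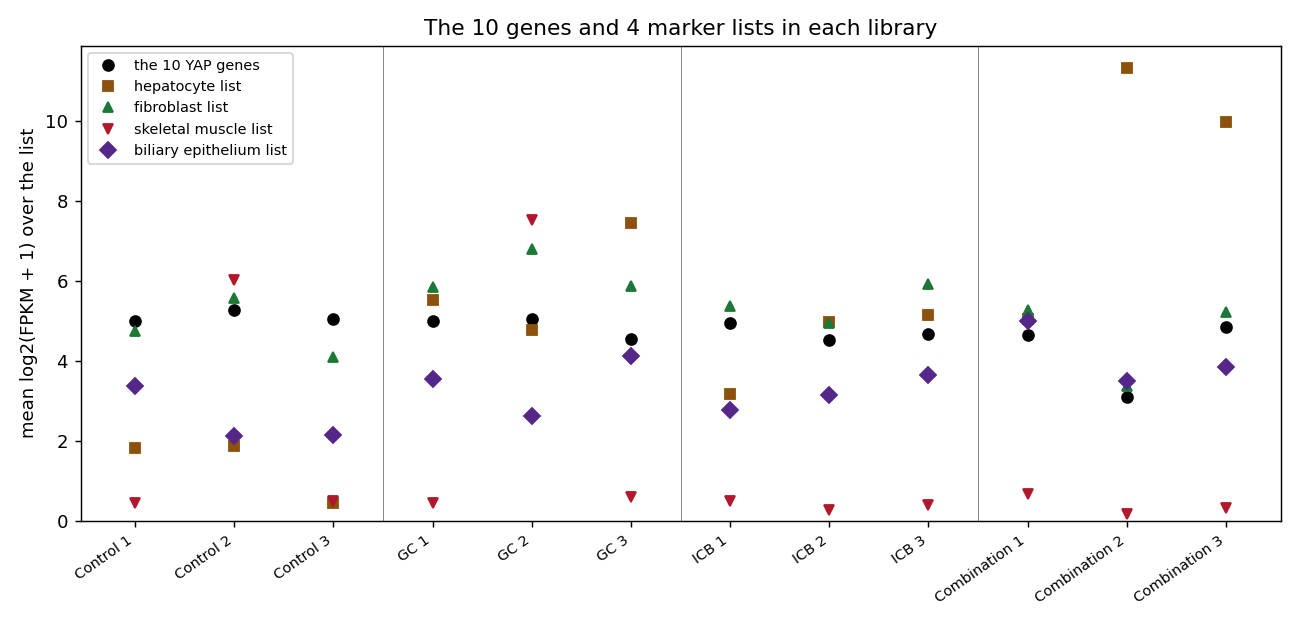
Mean log2(FPKM + 1) over the 10 YAP genes and over 4 marker lists (y axis) in each of the 12 libraries (x axis, vertical lines between groups). The 10 genes lie between 4.53 and 5.27 in 11 libraries and at 3.09 in Combination replicate 2, where the hepatocyte list reaches 11.3, and the skeletal muscle list stands out in Control replicate 2 and GC replicate 2.

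All 10 genes were expressed well enough to be tested, with means over the 12 libraries from 5.90 FPKM for Lats2 to 199.9 FPKM for Ctgf. FPKM is per length, so levels can be ranked: Ctgf was first, followed by Axl (112 FPKM), Cyr61 (99.0 FPKM), Ankrd1 (33.2 FPKM), Wwtr1 (32.2 FPKM), Yap1 (16.3 FPKM), Amotl2 (11.03 FPKM), Tead1 (9.36 FPKM), Ajuba (9.29 FPKM) and Lats2. Several neighbours in this order were not separated. Axl was above Cyr61 in 7 of 12 libraries, Ankrd1 above Wwtr1 in 3, Amotl2 above Tead1 in 8 and Tead1 above Ajuba in 7. Ctgf was above Axl, Cyr61 above Ankrd1, Yap1 above Amotl2 and Ajuba above Lats2 in all 12, and Wwtr1 was above Yap1 in 11.

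The coactivators come first. Yap1 (chromosome 9, 7931999 to 8004596, minus strand, GRCm38) stood at 17.6, 21.0 and 18.4 FPKM in Control replicates 1 to 3, at 19.6, 19.4 and 18.5 FPKM in GC, at 14.9, 11.9 and 9.29 FPKM in ICB and at 10.4, 15.5 and 19.6 FPKM in Combination. Control and GC libraries lay together, all 3 ICB libraries lay below every Control and every GC library, and the Combination libraries spanned both ranges. Its group means were 19.0 ± 1.77 FPKM in Control, 19.1 ± 0.601 in GC, 12.02 ± 2.79 in ICB and 15.2 ± 4.58 in Combination (SD, n = 3 each, as for all group means below). In Combination replicate 2 Yap1 differed by -0.03 from the mean of the other 11 libraries on the log2(FPKM + 1) scale, the smallest offset among the 10 genes.

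Wwtr1 encodes TAZ, the paralogue of YAP (chromosome 3, 57455649 to 57575910, minus strand). It stood at 34.6, 54.2 and 40.1 FPKM in Control, 39.7, 21.2 and 24.3 FPKM in GC, 40.9, 29.6 and 31.8 FPKM in ICB and 26.1, 6.07 and 37.2 FPKM in Combination. Control held the highest library and Combination replicate 2 was by far the lowest, and every treated group overlapped Control. The ratio of Wwtr1 to Yap1 within a library ran from 1.97 to 2.59 in Control, from 1.09 to 2.03 in GC, from 2.49 to 3.43 in ICB and was 2.49, 0.392 and 1.90 in Combination replicates 1 to 3. An exact two-sided permutation test of the log ratio against Control gave p = 0.2 for GC, 0.2 for ICB and 0.4 for Combination, where 3 samples against 3 cannot go below 0.1 (adjusted p from 0.3 to 0.4 over the 6 ratio tests made).

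Tead1, one of the TEAD factors through which both coactivators act on DNA, lies on chromosome 7 (112679318 to 112906807, plus strand). It stood at 5.57, 14.6 and 11.99 FPKM in Control, 10.3, 9.42 and 8.54 FPKM in GC, 13.8, 9.43 and 10.3 FPKM in ICB and 6.39, 3.02 and 8.99 FPKM in Combination. Control replicate 1 was low, within the range of the Combination libraries, while all 3 Combination libraries lay below all 3 ICB libraries.

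The regulators of the set were expressed at lower levels. Lats2, the kinase that inactivates YAP and is itself induced by YAP as feedback (chromosome 14, 57689662 to 57758388, minus strand), stood at 7.81, 7.98 and 6.55 FPKM in Control, 5.86, 7.05 and 4.07 FPKM in GC, 7.97, 3.10 and 6.03 FPKM in ICB and 5.23, 3.23 and 5.88 FPKM in Combination. All Combination libraries were below all Control libraries, and GC and ICB overlapped Control. ICB replicate 2 held the lowest level of all. Per GENCODE M21, a second protein-coding model (Gm49361) overlaps Lats2 on the same strand. The deposited values hold no entry under that symbol, and whether the overlap affected the counting of Lats2 reads is not known.

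Ajuba, a LIM-domain scaffold that binds and restrains LATS kinases at junctions (chromosome 14, 54567472 to 54577558, minus strand), stood at 10.8, 15.8 and 10.9 FPKM in Control and at 9.27, 10.9 and 7.44 FPKM in GC. Its ICB values were 10.7, 5.90 and 8.99 FPKM and its Combination values 8.64, 3.78 and 8.42 FPKM. Every ICB and every Combination library lay below every Control library, in ICB by a narrow margin between 10.67 and 10.78 FPKM.

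Amotl2, a junctional angiomotin family protein that binds YAP and is also its transcriptional target (chromosome 9, 102716672 to 102733418, plus strand), overlapped Control in every group. Its values were 14.7, 14.9 and 9.78 FPKM in Control, 13.2, 15.5 and 9.38 FPKM in GC, 11.4, 6.78 and 9.23 FPKM in ICB and 8.03, 6.77 and 12.7 FPKM in Combination. Control replicate 3 lay below some libraries of every other group, so no group stood apart.

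The 2 matricellular target genes were the most abundant secreted products of the set. Ctgf (connective tissue growth factor, chromosome 10, 24595442 to 24598683, plus strand) stood at 389, 209.8 and 241 FPKM in Control, 215, 256 and 126 FPKM in GC, 225, 173 and 155 FPKM in ICB and 199, 30.3 and 179.6 FPKM in Combination. Control replicate 1 was the highest library and Combination replicate 2 the lowest, 12.9-fold apart, and all 3 Combination libraries were below all 3 Control libraries. Its group means were 279.9 ± 96.1 FPKM in Control, 199.1 ± 66.3 in GC, 184 ± 36.4 in ICB and 136 ± 92.4 in Combination. Cyr61 (chromosome 3, 145646976 to 145649981, minus strand), its close relative in sequence and function, stood at 141, 95.3 and 85.4 FPKM in Control, 116, 173 and 77.4 FPKM in GC, 67.7, 105 and 98.1 FPKM in ICB and 92.5, 16.7 and 120.1 FPKM in Combination.

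Cyr61 did not separate any treated group from Control. Its highest library was GC replicate 2, and Combination replicates 1 and 3 lay inside the Control range. The ratio of Ctgf to Cyr61 lay between 2.20 and 2.82 in Control, between 1.48 and 1.86 in GC, between 1.58 and 3.32 in ICB and between 1.496 and 2.16 in Combination. Both GC and Combination lay wholly below Control in this ratio, each with an exact two-sided permutation p = 0.1, the smallest possible, and an adjusted p = 0.3. The same exact permutation test gave p = 0.4 for ICB.

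Ankrd1, a stress-induced nuclear and sarcomeric protein of heart and skeletal muscle that is also a standard YAP readout, lies on chromosome 19 (36111961 to 36120099, minus strand). It stood at 33.8, 53.6 and 32.4 FPKM in Control and at 29.1, 84.6 and 28.6 FPKM in GC. Its 2 highest libraries were GC replicate 2 and Control replicate 2, the 2 libraries with skeletal muscle transcripts, and whether these set its level was not tested. In ICB it stood at 24.5, 23.0 and 20.1 FPKM, a narrow range below every Control and GC library. In Combination the values were 44.7, 3.15 and 20.4 FPKM, with replicate 1 inside the Control range and replicate 2 the lowest of all 12, a 26.9-fold range for the gene.

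Axl, a receptor tyrosine kinase for the ligand Gas6 found on tumour cells, fibroblasts and macrophages (chromosome 7, 25757273 to 25788705, minus strand), stood at 83.6, 145 and 208 FPKM in Control and 156, 49.3 and 75.8 FPKM in GC. It stood at 166, 105 and 127 FPKM in ICB and 88.5, 10.4 and 127 FPKM in Combination. Libraries of 1 group lay far apart, and no treated group was separated from Control.

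**Figure D2:**
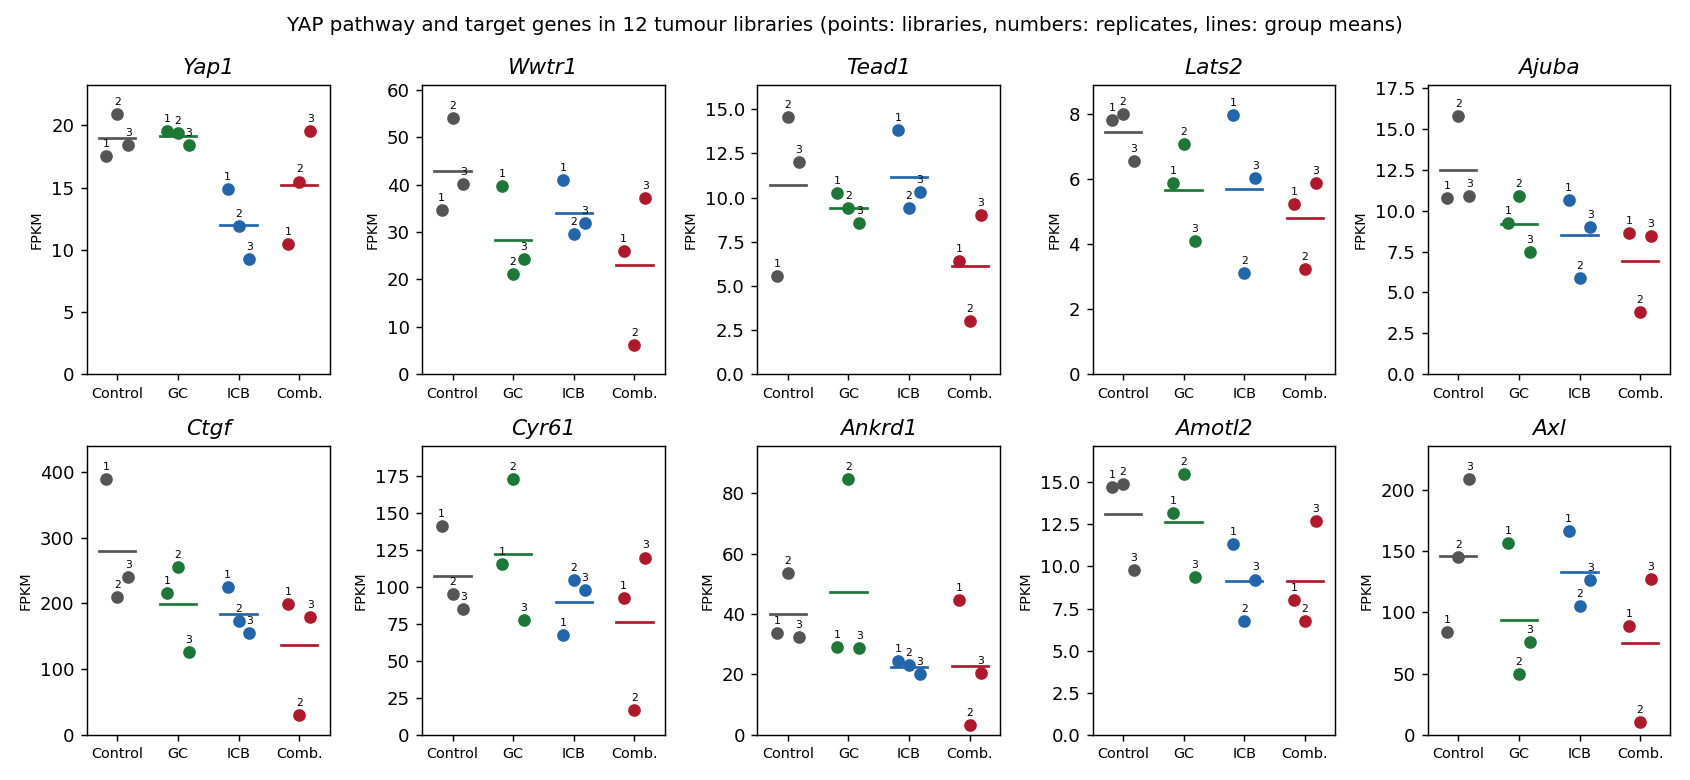
FPKM of each of the 10 genes (y axes from 0) in the 3 libraries of each group (x axis). Points are libraries, the small numbers are replicates and the lines are group means. Combination replicate 2 is the lowest point in 8 of the 10 panels, and the 3 ICB points of Yap1 and Ankrd1 lie below all Control points.

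Combination replicate 2 stood apart from the other 11 libraries. It held the lowest value of 8 of the 10 genes, the exceptions being Yap1 and Lats2, and it also held the lowest value of 55.2% of all 12765 tested genes. Its median offset from the mean of the other 11 libraries was -1.84 for the 10 genes and -0.75 for all tested genes, on the log2(FPKM + 1) scale. The offset was largest for Axl (-3.31), Ankrd1 (-3.02), Ctgf (-2.73), Cyr61 (-2.55) and Wwtr1 (-2.28). It was -1.40 for Tead1, -1.14 for Ajuba, -0.72 for Lats2 and -0.64 for Amotl2. The sum of a fibroblast list of 15 genes was also lowest there, at 361 FPKM against 980 to 5202 FPKM in the other libraries. Not every gene of that list was: Dcn, Lum, Thy1, Fap, Fbln1 and Cthrc1 had their lowest value in a Control library. Dcn stood at 91.2 FPKM in Combination replicate 2, against 21.8 to 76.3 FPKM in Control. In bulk tissue, fewer cells of a type and less RNA per cell cannot be told apart, and the part of hepatocyte or fibroblast content in these offsets was not tested.

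At the other end, 5 of the 10 genes were highest in Control replicate 2 (Yap1, Wwtr1, Lats2, Tead1 and Ajuba), 3 in GC replicate 2 (Cyr61, Ankrd1 and Amotl2), 1 in Control replicate 1 (Ctgf) and 1 in Control replicate 3 (Axl). These libraries held the highest value of 15.4%, 17.4%, 10.3% and 9.53% of all tested genes. No gene of the set was highest in an ICB or Combination library. Of all tested genes, 10.3%, 0.807% and 2.61% were highest in ICB replicates 1 to 3. The shares for Combination replicates 1 to 3 were 10.4%, 13.9% and 2.79%.

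**Figure D3:**
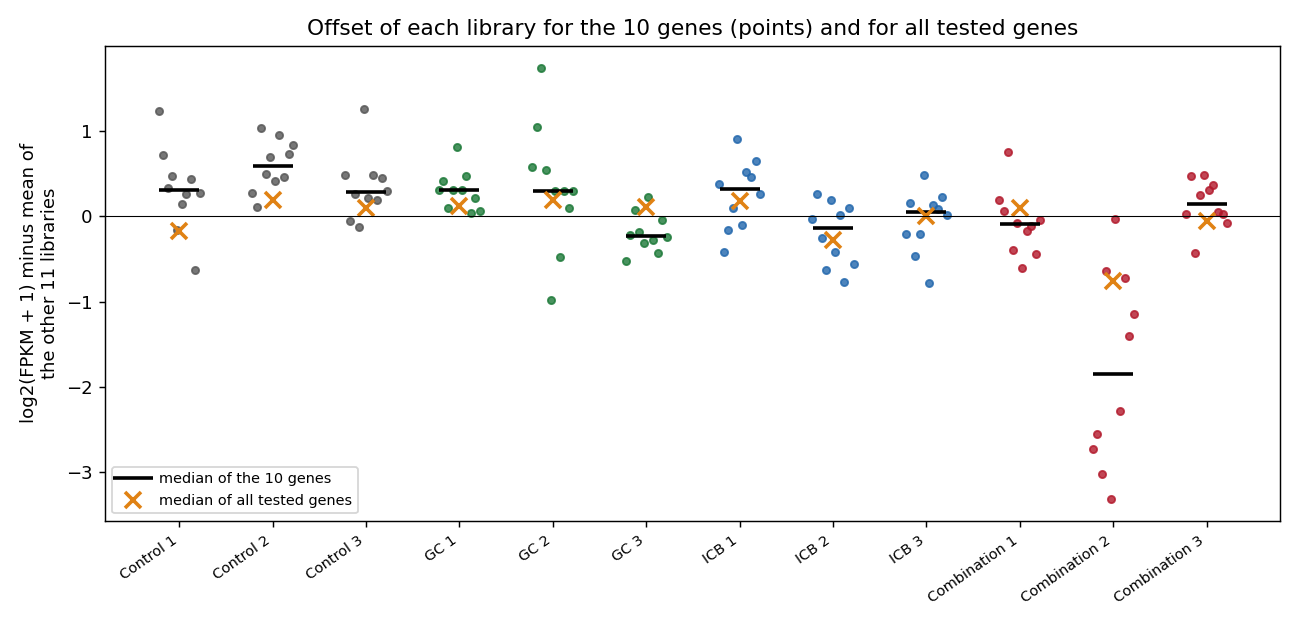
Difference of each library from the mean of the other 11 in log2(FPKM + 1) (y axis) for the 10 genes (points, with their median as a bar) and for the median of all tested genes (crosses), by library (x axis). All 10 points of Combination replicate 2 are below 0, with a median of -1.84 against -0.75 for all genes.

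What chemotherapy alone did to the set was read from GC against Control. None of the 10 genes changed by limma (adjusted p from 0.761 to 0.999), and 0 had an unadjusted p under 0.05, where 1 of 12765 tested genes (0.00783%) passed the adjusted and 9.86% the unadjusted threshold. No gene of the set was separated from Control in either direction, against 18.6% of tested genes separated upward and 9.29% downward. Wwtr1 differed by -0.61 ± 0.52 (limma estimate ± SE of log2(FPKM + 1), as below), Axl by -0.70 ± 0.77, Ctgf by -0.50 ± 0.61 and Ajuba by -0.40 ± 0.32. Cyr61 differed by 0.14 ± 0.61, Ankrd1 by 0.09 ± 0.71 and Yap1 by 0.02 ± 0.25. Differences were negative for 7 of 10 and 41.2% of tested genes, with a median of -0.22 against 0.09 over all tested genes. The sign of the 3 positive ones turned for Cyr61, Ankrd1 and Yap1 under quantile normalization and for Yap1 under median log-ratio scaling. With hepatocyte content as a covariate 9 of the 10 were positive (median 0.26, all tested genes 0.45), and with fibroblast content 9 were negative (median -1.02, all tested genes -0.24). None passed in either. Control and GC shared no range of either list mean, so these fits extrapolate. Without the pair of muscle-rich libraries Ankrd1 stood at -0.19 and Cyr61 at -0.21.

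Checkpoint blockade alone was read from ICB against Control, where limma again called 0 of the 10 (adjusted p = 1 for each). No gene at all passed (0% of 12765), and 1 of the 10 against 1.75% of tested genes had an unadjusted p under 0.05. That gene was Yap1, at -0.64 ± 0.25 (limma adjusted p = 1), with all 3 ICB libraries below Control. Ankrd1 differed by -0.77 ± 0.71, Ctgf by -0.57 ± 0.61, Ajuba by -0.52 ± 0.32 and Amotl2 by -0.49 ± 0.30. Yap1, Ankrd1 and Ajuba, 3 of the 10, were separated from Control downward, against 4.67% of tested genes, and none upward (4.65%). In all, 9 of the 10 differences and 57.9% of those of tested genes were negative, with a median of -0.44 against -0.06 over all tested genes. Every ICB library held more hepatocyte transcripts than every Control library. With hepatocyte content as a covariate 6 of the 10 were positive (median 0.26, all tested genes 0.20), and none passed. Yap1 was not among these 6, at -0.81 (limma adjusted p = 0.342), and stayed between -0.81 and -0.48 over its 22 alternatives. With fibroblast content all 10 were negative (median -0.69, all tested genes -0.21), and none passed.

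Both treatments together were read from Combination against Control. All 10 differences were negative, with a median of -0.83 against -0.29 over all tested genes, of which 67% were negative. None of the 10 passed (limma adjusted p from 0.147 to 0.377), where 3.95% of tested genes did. The differences were -1.44 ± 0.77 for Axl, -1.38 ± 0.61 for Ctgf, -1.32 ± 0.71 for Ankrd1 and -1.16 ± 0.52 for Wwtr1. They were -0.85 ± 0.61 for Cyr61, -0.81 ± 0.32 for Ajuba, -0.72 ± 0.38 for Tead1, -0.57 ± 0.32 for Lats2, -0.50 ± 0.30 for Amotl2 and -0.34 ± 0.25 for Yap1. Ajuba, Ctgf and Wwtr1 had an unadjusted p under 0.05, 3 of 10 against 26.3% of tested genes. Ctgf, Lats2 and Ajuba, also 3 of 10, were separated from Control downward, against 13.2% of tested genes, and 0 upward (9.74%).

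The size of these differences depended on 1 library. Without Combination replicate 2 the median of the 10 was -0.36 against -0.04 over all tested genes, 9 of 10 remained negative, and the sizes lay between -0.51 (Ctgf) and 0.01 (Cyr61), with the smallest adjusted p at 0.422. Scaling each library by its median log ratio brought the all-gene median to 0.01 and the median of the 10 to -0.50, with Yap1 at 0.0098. With hepatocyte content as a covariate 7 of the 10 were positive (median 0.12, all tested genes 0.37), and none passed. With fibroblast content all 10 were negative (median -0.72, all tested genes -0.24), with the smallest limma adjusted p at 0.0642. Leaving out Combination replicate 1, in which small intestinal transcripts summed to 5945 FPKM, let Ankrd1 pass (-2.08 ± 0.65, limma adjusted p = 0.0442, range over its alternatives 0.0442 to 0.782), along with 24.8% of all tested genes. Leaving out that replicate removed the highest Combination value of Ankrd1 (44.7 FPKM) and kept 3.15 and 20.4 FPKM in replicates 2 and 3. Under quantile normalization Ajuba passed (-0.68 ± 0.18, limma adjusted p = 0.048, range 0.048 to 0.959), along with 6.72% of tested genes.

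**Figure D4:**
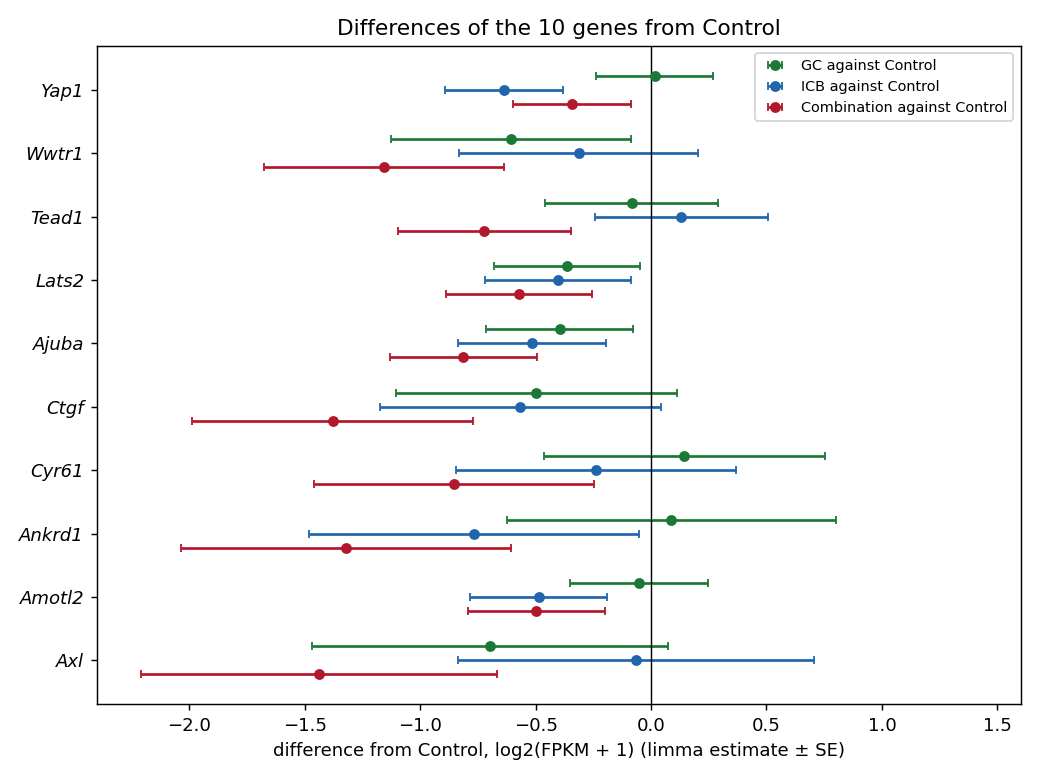
Difference of each treated group from Control in log2(FPKM + 1) (x axis, limma estimate, bars ± SE) for the 10 genes (y axis). The 10 Combination points run from -1.44 for Axl to -0.34 for Yap1, and the Yap1 point of ICB lies at -0.64 while that of GC lies at 0.02.

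Blockade added to chemotherapy was read from Combination against GC, and chemotherapy added to blockade from Combination against ICB. These comparisons share the Combination libraries with each other and with the preceding one, so they are not independent of it. Against GC all 10 differences were negative (76.2% of tested genes), with a median of -0.59 (all tested genes -0.36). By limma 0 of 10 passed (0.666% of tested genes) and 0 had an unadjusted p under 0.05 (16.5%). None were separated downward (14.2%) or upward (4.16%). Ankrd1 was at -1.41 ± 0.71, Cyr61 at -0.996 ± 0.61 and Tead1 at -0.64 ± 0.38. Without Combination replicate 1 Ankrd1 passed at -2.17 ± 0.65 (limma adjusted p = 0.0403, range 0.0403 to 0.99996), along with 23.6% of tested genes.

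Against ICB 9 of 10 were negative (64.5% of tested genes) with a median of -0.58 (all tested genes -0.21). None passed by limma (2.24% of tested genes) and 1 had an unadjusted p under 0.05 (20.5%). It was Tead1, at -0.85 ± 0.38 (adjusted p = 0.23), which was also the 1 gene separated downward (10.1% of tested genes, 9.47% upward). Axl stood at -1.37 ± 0.77. Yap1 was the exception in sign, at 0.29 ± 0.25 (limma adjusted p = 0.513). Without Combination replicate 2 the medians of the 10 were -0.11 against GC and 0.05 against ICB, and those of all tested genes -0.11 and 0.05. With fibroblast content as a covariate 8 of 10 were positive against GC (median 0.30, all tested genes 0.06) and 6 of 10 against ICB (median 0.06, all tested genes 0.02). The difference from GC extrapolates there, since every Combination library had a lower fibroblast mean than every GC library. With hepatocyte content 8 of 10 were negative against GC (median -0.17, all tested genes -0.08). In that setting 7 of 10 were positive against ICB (median 0.17, all tested genes 0.21). Median log-ratio scaling left 8 of 10 negative against GC (median -0.20) and 7 of 10 against ICB (median -0.35).

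Whether the treatments added up was tested by their interaction (Combination minus GC minus ICB plus Control). None of the 10 passed (limma adjusted p from 0.69 to 0.975, 0 at an unadjusted p under 0.05 against 8.09% of tested genes, and 0.0157% of tested genes past the adjusted threshold). Tead1 had the largest estimate, at -0.77 ± 0.53. Estimates were negative for 6 of 10 and 68.2% of tested genes. The median of the 10 was -0.28, beside -0.26 for all tested genes, and without Combination replicate 2 it was 0.37 beside -0.01. With fibroblast content as a covariate all 10 were positive, with a median of 1.01 beside 0.28. Under median log-ratio scaling 6 of 10 were positive (median 0.05). None passed in either. The fibroblast fit extrapolates, since every GC library lay above every Control and Combination library in that list mean.

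**Figure D5:**
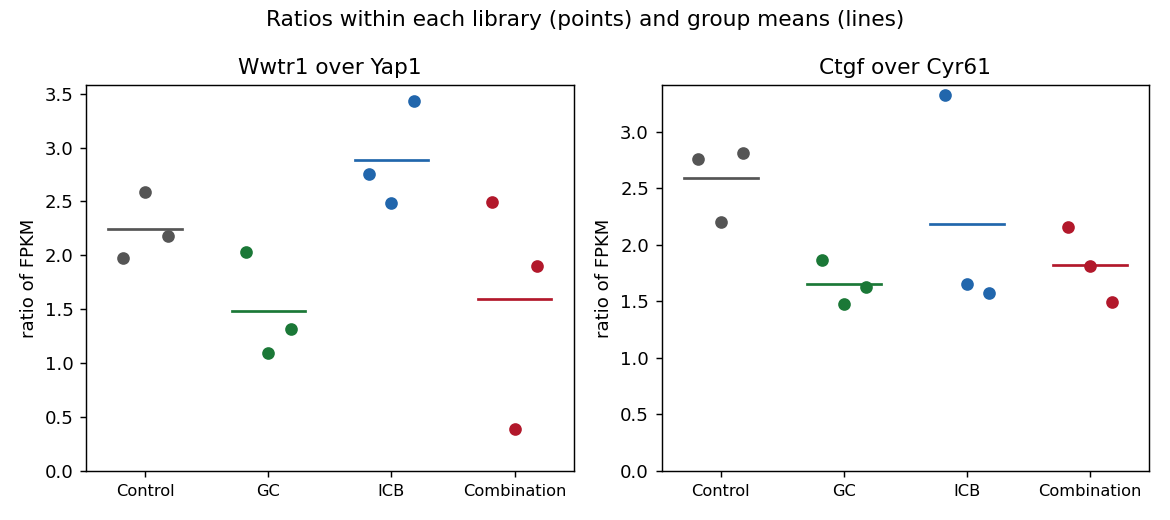
Ratio of FPKM within each library (y axes from 0) for Wwtr1 over Yap1 and Ctgf over Cyr61, by group (x axis), with points for libraries and lines for group means. In Ctgf over Cyr61 all 3 GC points (1.48 to 1.86) lie below all 3 Control points (2.20 to 2.82).

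Around the set, 43 other genes of the pathway in 3 lists were read the same way. Of 21 Hippo kinases and scaffolds 19 were tested, of 7 TEAD and VGLL cofactor genes 4, and of 15 further YAP targets all 15. The genes below a mean of 1 FPKM were the atypical cadherins Fat4 and Dchs1 and the cofactors Vgll1, Vgll2 and Vgll3. No tested gene of any list passed in any of the 6 comparisons by limma. At an unadjusted p under 0.05 there were 0, 0 and 2 genes of the 3 lists in GC against Control (9.86% of tested genes), 0 in ICB against Control (1.75%), and 3, 1 and 2 in Combination against Control (26.3%).

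Among the core components, Wwc2, a KIBRA family scaffold that activates LATS, stood at 14.4 ± 3.64 FPKM in Control, 8.61 ± 1.06 in GC, 9.45 ± 2.25 in ICB and 7.67 ± 3.38 in Combination. It differed from Control by -0.65 ± 0.33 in GC, -0.55 ± 0.33 in ICB and -0.89 ± 0.33 in Combination (limma adjusted p = 0.557, 1 and 0.133), and every GC and Combination library lay below every Control library. Its relative Wwc1 (KIBRA itself) went the other way in Combination, at 7.26, 25.4 and 14.5 FPKM against 5.73 to 8.57 FPKM in Control. Wwc1 differed by 1.44 ± 0.42 from GC and 1.36 ± 0.42 from ICB (adjusted p = 0.202 and 0.114), with an interaction of 1.88 ± 0.59 (limma adjusted p = 0.468). Its 2 highest libraries, Combination replicates 2 and 3, were also the 2 highest for the hepatocyte list, and the part of liver tissue in this was not tested. The phosphatase Ptpn14, a YAP inhibitor, stood at -1.06 ± 0.41 in Combination against Control, the LIM protein Wtip at -0.88 ± 0.37 against GC with an interaction of -1.08 ± 0.53, Mob1a at -0.52 ± 0.34 in ICB, and the kinase Taok3 at 0.44 ± 0.23 in GC and 0.48 ± 0.23 in Combination against ICB.

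Tead2, another TEAD factor, was the most abundant of the family in the list. It stood at 67.4, 72.2 and 53.8 FPKM in Control, 46.3, 31.9 and 43.2 FPKM in GC, 62.0, 39.1 and 45.5 FPKM in ICB and 47.6, 5.03 and 33.8 FPKM in Combination. Every GC and every Combination library lay below every Control library, and ICB overlapped it. The differences from Control were -0.66 ± 0.61, -0.41 ± 0.61 and -1.58 ± 0.61 (limma adjusted p = 0.794, 1 and 0.139). Tead2 stood at -0.92 ± 0.61 against GC and -1.18 ± 0.61 against ICB in Combination, with an interaction of -0.51 ± 0.86. Tead4 differed by -1.0004 ± 0.51 in Combination against Control. Tead3 differed by -0.48 ± 0.37 against GC and -0.58 ± 0.37 against ICB, with an interaction of -0.59 ± 0.53. The cofactor Vgll4, which competes with YAP for TEAD, differed by -0.25 ± 0.23 in GC and -0.27 ± 0.23 in ICB.

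The further target genes did not share 1 direction. Crim1, a transmembrane regulator of growth factors, was narrow in Control (9.54 to 10.4 FPKM) and lower in every treated library, at 5.33 to 6.63 FPKM in GC, 4.73 to 7.23 in ICB and 2.39 to 8.16 in Combination. It differed by -0.60 ± 0.34 in ICB and -0.80 ± 0.34 in Combination (limma adjusted p = 1 and 0.165). The Arf regulator Asap1 differed by -0.92 ± 0.31 in Combination (adjusted p = 0.108). In the opposite direction, Ccdc80, a matrix protein of fibroblasts, stood at 22.6 ± 5.58 FPKM in Control, 78.5 ± 19.99 in GC, 37.7 ± 16.7 in ICB and 29.3 ± 16.8 in Combination.

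Ccdc80 differed by 1.75 ± 0.43 in GC (limma adjusted p = 0.177), 0.66 ± 0.43 in ICB and -1.51 ± 0.43 in Combination against GC (adjusted p = 0.187), with an interaction of -2.17 ± 0.61. All 3 GC libraries lay above all 3 Control libraries, and the fibroblast list was also higher there, at 2888 to 5202 FPKM against 980 to 1964 FPKM. The RNA-binding gene Rbms3 followed with 0.83 ± 0.35 in GC and an interaction of -1.05 ± 0.50. Igfbp3, an IGF-binding protein, stood at -1.18 ± 0.46 against GC, and the stress gene Gadd45a (-1.58 ± 0.77) and the gene Arhgef17 (-0.91 ± 0.46) against ICB.

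Several of these passed when Combination replicate 1 was left out, a setting in which 24.8% of all tested genes passed in Combination against Control and 23.6% in Combination against GC. They were Tead2 against Control (-2.16 ± 0.58, limma adjusted p = 0.0268), and Wwc1 (1.87 ± 0.39, 0.0112), Ccdc80 (-1.93 ± 0.39, 0.00963) and Igfbp3 (-1.58 ± 0.44, 0.0333) against GC. Wwc1 also passed against ICB (1.79 ± 0.39, limma adjusted p = 0.0141), where 16.1% of tested genes did. Both Wwc1 (limma adjusted p = 0.0324) and Ccdc80 (0.0205) passed in the interaction, with 6.36% of tested genes. In that setting Ccdc80 passed in GC against Control as well (limma adjusted p = 0.0477), with 1.43% of tested genes. It also passed there with hepatocyte content as a covariate (2.45, limma adjusted p = 0.0349, range 0.0349 to 0.782), with 5.19% of tested genes. Over all alternatives the highest adjusted p of the others lay between 0.739 (Wwc1 against ICB) and 0.99996 (Igfbp3).

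Among the genes whose levels ran most like Ctgf over the 12 libraries were Mtdh (Pearson r = 0.96 of log2 values), the growth transcription factor Myc (0.95), Ktn1 (0.95) and Arl8a (0.95). Nearest to Cyr61 were Fam131a (0.93), the endoplasmic reticulum retention receptor Kdelr3 (0.93), the p53 regulator Mdm2 (0.93), Osbpl5 (0.92) and Ppp3r1 (0.92). These are descriptions of likeness chosen among 12765 tested genes, and the 12 points share their group structure. All 9 of these genes were lowest in Combination replicate 2, as Ctgf and Cyr61 were. Myc, for example, stood at 28.7 FPKM there and at 138 to 273 FPKM in the other 11.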

How the data were processed

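The deposited values are FPKM by the authors, 1 per gene symbol and library, in 12 libraries assigned to 4 groups by their titles (0 columns unmapped). Libraries were made from total RNA with Qiagen stranded kits, per the labels' protocols. Alignment and counting tools named in the submitters' processing notes are HISAT2, HTSeq and SAMtools, beside cutadapt and FastQC, and the build is mm10. Versions, the step that made FPKM and the use of strand in counting are not given in the sources used here, so antisense and overlapping genes cannot be told apart. FPKM without counts leaves the depth unknown, so no counting intervals are given.

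The 12765 genes averaging 1 FPKM or more were fitted on the log2(FPKM + 1) scale, on which differences of low genes come out too small. limma 3.58.1 in R 4.3.3 was used, with 1 mean per group, an intensity trend in its empirical Bayes step and 8 residual degrees of freedom. P-values were adjusted by Benjamini-Hochberg over all of them, with a threshold of 0.05. Separated means that all 3 libraries of a group lay on 1 side of all 3 of another. The limma step was tested on simulated data. Gene positions are from GENCODE M21 (GRCm38).

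The 10 genes, the lists and the tests were chosen with earlier results of these data known. Named by rule were the 10 genes, in each pathway list and comparison the 2 genes of smallest p, and the 5 genes most correlated with Ctgf and Cyr61, of which 1 is not reported here. Of the marker lists, hepatocyte, skeletal muscle, biliary and fibroblast genes are described, and small intestinal, smooth muscle, endothelial and macrophage lists only as levels. Their summed FPKM ran from 20.9 to 5945 (small intestine), 57.8 to 989 (smooth muscle and pericyte), 29.4 to 136 (endothelial) and 241 to 2540 (macrophage).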

Additional observations from a re-analysis of the deposited data

How the results depend on the processing

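Of the 10 genes, 0 passed in any of the 6 comparisons, and that count moved to 1 in Combination against Control under quantile normalization (Ajuba) and by leaving out Combination replicate 1 (Ankrd1, range 0 to 1 over single libraries left out), and likewise to 1 in Combination against GC (0 to 1). The count of all genes called ranged from 0 to 662 for GC against Control (1 as reported), 94 to 3167 for Combination against Control (504), 3 to 3014 against GC (85), 27 to 2050 against ICB (286) and 0 to 812 for the interaction (2). It stayed at 0 for ICB against Control. Over 1423 recomputed single-gene differences, 47 changed sign, all of them uncalled. The cause of these changes was not tested.

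With mean hepatocyte level as covariate, differences in GC against Control became 0.87 (Ctgf), 0.13 (Wwtr1), 0.16 (Ajuba), 0.55 (Axl), -0.25 (Yap1) and 0.58 (Tead2), and in ICB against Control 0.45 (Ankrd1), 0.35 (Ctgf) and 0.43 (Tead2). In Combination against Control they became 0.85 (Ctgf), 0.68 (Cyr61), 1.64 (Ankrd1), 0.60 (Axl), 0.040 (Wwtr1), 0.14 (Lats2), 0.10 (Ajuba), 0.11 (Ptpn14), 0.45 (Tead2) and 0.72 (Tead4), and against ICB 0.023 (Tead2). In Combination against Control the SE was 0.89 for Ctgf, 1.05 for Cyr61, 0.94 for Ankrd1, 1.32 for Axl and 0.92 for Wwtr1. The hepatocyte mean ran from 0.44 to 1.88 in Control and began at 3.17 in ICB, 4.76 in GC and 5.05 in Combination. Adjusted differences from Control therefore extrapolate, since no treated group shared its range. With the fibroblast list mean as a covariate, GC against Control gave -1.01 (Cyr61) and -1.44 (Ankrd1), and Combination against GC gave 0.32 (Ankrd1), 0.31 (Cyr61), 0.30 (Tead2) and 0.21 (Tead3). The interaction gave 0.019 (Tead1), 0.38 (Tead3) and 1.19 (Tead2). The fibroblast mean ran from 5.85 to 6.79 in GC, above 4.09 to 5.57 in Control and 3.37 to 5.28 in Combination. Fibroblast-adjusted differences of GC from these 2 groups, and the interaction, therefore extrapolate as well. Quantile normalization gave -0.017 (Cyr61), -0.031 (Ankrd1) and -0.086 (Yap1) in GC against Control, and median log-ratio scaling gave -0.059 (Yap1) there and 0.0098 (Yap1) in Combination against Control. Without the muscle-rich pair Cyr61 was at -0.21 and Ankrd1 at -0.19 in GC against Control. Leaving out single libraries moved GC against Control from -0.15 to 0.43 (Cyr61), -0.42 to 0.35 (Ankrd1) and -0.036 to 0.086 (Yap1), Combination against Control from -1.38 to 0.0084 (Cyr61), and Tead2 from -1.50 to 0.0047 against GC and from -1.09 to 0.41 in the interaction.

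A replicate block by title number left 0 of the 10 called in every comparison, and the count over all genes was 540 in Combination against Control and 53 against GC. The labels tie nothing to the numbers. The submitters' own sample names carry other numbers than the titles for all Control samples and for the last GC and Combination samples. A block by those numbers was not tested. Of 18 pairs of libraries with the same number 8 deviated together (correlation over 0.1, range -0.24 to 0.42). The highest was that of Control replicate 2 and GC replicate 2, the 2 libraries with skeletal muscle transcripts. In 6 of 12 libraries the best match in another group had the same number. The share for pairs with unlike numbers was not computed, so these counts do not show a pairing.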
